A study of Rattus norvegicus with 9 samples.

Results

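The apolipoprotein genes described here are Apoa1, Apoa2, Apoa4, Apoa5, Apob, Apoc1, Apoc3, Apoe, Apom and Apoh, 10 of the 13438 genes that could be named on a rat expression array. They were found by the RefSeq accession printed for each probe, which gave 15 of the 41012 probes: 5 for Apob, 2 for Apoc3 and 1 for each of the other members. Where a gene had several probes, the brightest was used as its main probe and the others are given beside it. The arrays were of the one-colour Agilent type and each carried total RNA from the liver of 1 male Wistar rat, 9 rats in all, with 3 in each of 3 groups. The control rats received neither treatment. The TBI rats were exposed to total-body irradiation of 6.5 Gy from a 60Co source at 2 Gy/min. The HSC + TBI rats were given HSC, the herbal preparation Hong Shan Capsule, into the stomach for 3 days and then the same exposure. The HSC dose is 10 g/kg/day in the series design but 30 mg/kg/day in the sample labels, and it entered no calculation. Livers were sampled at 24 h. The age of the rats was not given in the sources used here, and no group on the arrays had HSC without irradiation. The comparisons ask whether irradiation changed these transcripts in the liver and whether their levels differed when HSC had been given first.

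Apolipoproteins are the protein components of plasma lipoproteins, and the liver is the main source of most of them. Apolipoprotein B is the structural protein of very-low-density and low-density lipoprotein, while apolipoproteins A-I and A-II are the main proteins of high-density lipoprotein (HDL). The smaller exchangeable members move between particles and act as cofactors or inhibitors of lipases and as ligands for receptors. In the genome several of these genes stand in clusters: Apoa1, Apoc3, Apoa4 and Apoa5 are neighbours on rat chromosome 8, and Apoc1 and Apoe are neighbours on chromosome 1. Hepatocyte nuclear factors and nuclear hormone receptors are known regulators of the family in liver.

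None of the 10 genes passed the test in any comparison. Calls required a change of at least 1.5-fold, which is 0.58 on the log2 scale, together with a p under 0.05 by limma after Benjamini-Hochberg adjustment. By that rule 0 of 10 members were called for TBI against control, where 7.25% of the 25369 tested probes were called. For HSC + TBI against control 0 of 10 were called, beside 3.23% of all tested probes. For HSC + TBI against TBI 0 of 10 were called, beside 0.796% of all tested probes. At an unadjusted p under 0.05 by limma the members numbered 2, 0 and 0 in the same order, and these were Apoa4 and Apob in TBI against control. The corresponding shares of all tested probes were 25.5%, 19.6% and 16.3%. The t-test named in the methods, at an unadjusted p under 0.05 and 1.5-fold, also called 0 members in each comparison. The value furthest from 0 was the lower signal of Apoa4 in TBI rats, -0.87 on the log2 scale, which missed the adjusted threshold. The number of arrays limits the precision: an exact two-sided permutation test of 3 rats against 3 could not go below p = 0.1.

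The promoters of the neighbouring genes Apoa4 and Apoa5 are printed, chosen by their signals. Apoa4 is the member furthest below its controls after TBI. Among the members of the chromosome 8 cluster, the quantile-normalized signals of Apoa5 ran most nearly opposite to those of Apoa4. The sequences come from RefSeq (assembly GRCr8) and hold the 250 bases before the annotated start, for Apoa5 the first of 2 starts. RefSeq promoter sequences were at hand for 6 of the 10 members, namely Apoa4, Apoa5, Apoc1, Apoe, Apom and Apoh. Capitals mark any match, on either strand, to the nuclear receptor element AGGTCA, the E-box CACGTG or the TATA box TATAAA; no matches overlap.
Apoa4 (chr8:55435529-55435778, plus strand): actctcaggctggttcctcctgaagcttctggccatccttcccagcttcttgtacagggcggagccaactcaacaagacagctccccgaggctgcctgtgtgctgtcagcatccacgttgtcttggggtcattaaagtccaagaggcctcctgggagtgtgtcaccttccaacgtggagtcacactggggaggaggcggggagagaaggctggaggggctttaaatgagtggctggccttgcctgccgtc
Apoa5 (chr8:55457621-55457870, plus strand): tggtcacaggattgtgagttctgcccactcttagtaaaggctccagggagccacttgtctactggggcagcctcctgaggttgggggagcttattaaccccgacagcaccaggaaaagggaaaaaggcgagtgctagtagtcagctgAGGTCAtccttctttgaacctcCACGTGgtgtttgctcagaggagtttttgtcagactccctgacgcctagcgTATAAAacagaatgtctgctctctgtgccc
The Apoa5 window held all 3 motifs: AGGTCA 103 bases before the start, CACGTG at 81 and TATAAA at 30. The Apoa4 window held none of these motifs, nor did those of Apoc1, Apoe, Apom and Apoh. Of 33469 RefSeq promoters of this length, 14.06% held AGGTCA, 5.593% CACGTG and 12.93% TATAAA. These matches describe the sequences and were not tested as binding sites.

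The 15 member probes were well above background on all 9 arrays, and none of their spots was saturated or carried an outlier flag. Of the array as a whole, the share of probes above background was 56.6% to 59.3% in controls, 63.6% to 69.5% in TBI rats and 58.7% to 60.5% in HSC + TBI rats. The 7 hepatocyte markers (Alb, Ttr, Serpina1, Cps1, Tf, Cyp2e1 and Fgb) were above background on every array and none was called in any comparison. In HSC + TBI against control, 4 had all treated rats above all controls and 2 had all below, beside 18.0% and 13.7% of all tested probes. In TBI against control 1 was above and 1 below, beside 13.3% and 15.6%. The one below was Ttr, at a log2 difference of -0.53 (adjusted p = 0.13 by limma). In HSC + TBI against TBI 1 was above and 0 below, beside 12.7% and 8.74%. No slide held arrays of more than 1 group, so slide and group cannot be told apart in any comparison. In whole liver, fewer cells of a type and less RNA per cell cannot be told apart either.

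Apoa4, the member with the widest spread, encodes a lipid-binding protein that the intestine makes in quantity after a fat meal and that rat liver also makes. Its normalized log2 signal was 17.32, 16.71 and 17.26 in the control rats. It was 16.73, 15.78 and 16.17 in the TBI rats and 16.77, 16.23 and 16.79 in the HSC + TBI rats. TBI 2 and TBI 3 lay below every control, while TBI 1 lay just above control 2, so the groups overlapped. The TBI mean was 0.547 times the control mean, a log2 difference of -0.87 (SE 0.28, 95% interval -1.51 to -0.23, unadjusted p = 0.013 and adjusted p = 0.0938 by limma). Without TBI 1 the log2 difference was -1.12 with an adjusted p of 0.0416, past the threshold, and over all 9 omissions of 1 rat it ran from -1.12 to -0.65. With the replicate number as a block its adjusted p was 0.0247 by limma, also past the threshold. The labels do not say what rats of the same number share. The Apoa4 difference was past the threshold too with the slide as a random block (adjusted p = 0.00213 by limma). That fit cannot adjust this comparison for slide, since no slide held both control and TBI arrays. With it, calls over all tested probes in TBI against control rose from 1839 to 4528. HSC + TBI rats lay between the other groups on average, at -0.50 against control (95% interval -1.13 to 0.14, adjusted p = 0.368 by limma) and 0.37 against TBI (-0.26 to 1.01, adjusted p = 0.551). Neither of these intervals leaves out 0 or a 1.5-fold difference. Of 3 intestinal epithelial markers on the array, Fabp2 was above background in every rat, with all irradiated rats above all controls and log2 differences of 0.68 for TBI and 0.57 for HSC + TBI against control (adjusted p = 0.0819 and 0.177 by limma), whereas Vil1 and Alpi were not above background throughout any group.

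**Figure D1:**
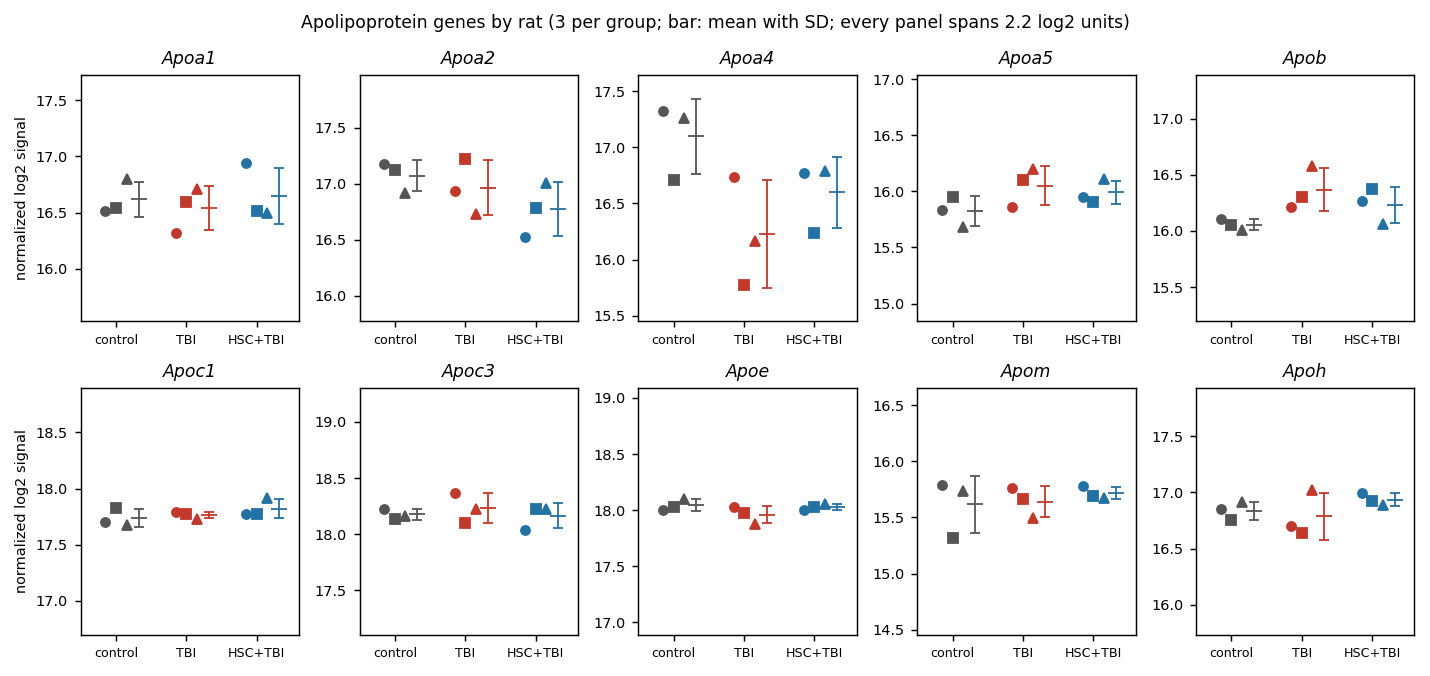
Normalized log2 signal (vertical axis) of the main probe of each of the 10 apolipoprotein genes in the control, TBI and HSC + TBI groups, with 1 point per rat (circle, square and triangle for rats 1, 2 and 3) and the group mean with its SD beside the points. Every panel spans 2.2 log2 units, and Apoa4 is the panel in which the points are most widely spread, with TBI 2 lowest at 15.78.

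Apoa1 and Apoa2, which encode the main proteins of HDL, differed little between groups. Apoa1 gave log2 signals of 16.52, 16.54 and 16.80 in controls, 16.32, 16.60 and 16.71 in TBI rats, and 16.94, 16.52 and 16.50 in HSC + TBI rats. All 3 groups of Apoa1 overlapped, and its log2 differences were -0.08 (95% interval -0.46 to 0.30) for TBI and 0.03 (-0.35 to 0.41) for HSC + TBI against control. Apoa2 gave 17.18, 17.12 and 16.92 in controls, 16.94, 17.22 and 16.73 in TBI rats, and 16.53, 16.79 and 17.01 in HSC + TBI rats. The HSC + TBI mean of Apoa2 lay 0.30 log2 units under control, an unadjusted p of 0.117 and an adjusted p of 0.381 by limma. Since HSC + TBI 3 exceeded control 3, the groups of Apoa2 overlapped here too.

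Apoa5 encodes a minor plasma protein that promotes the clearance of triglyceride by lipoprotein lipase. Its log2 signals were 15.83, 15.95 and 15.68 in controls, 15.86, 16.10 and 16.20 in TBI rats, and 15.95, 15.91 and 16.11 in HSC + TBI rats. With these quantile-normalized values TBI 2 and TBI 3 were above all controls but TBI 1 was not. The log2 difference was 0.23 for TBI (95% interval -0.07 to 0.53, adjusted p = 0.318 by limma) and 0.17 for HSC + TBI against control (-0.14 to 0.47, adjusted p = 0.538). With scaling to the 75th percentile in place of quantiles, the HSC + TBI against control difference was 0.43 (95% interval 0.08 to 0.78, adjusted p = 0.162 by limma). The TBI difference was then 0.28 (-0.08 to 0.63, adjusted p = 0.31 by limma). Every TBI and HSC + TBI rat was above every control with that scaling.

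After quantile normalization, Apob was the only member whose main probe separated a treated group from the controls. This gene encodes the protein around which very-low-density lipoprotein is assembled. Its main probe gave 16.10, 16.05 and 16.01 in controls, 16.22, 16.30 and 16.58 in TBI rats, and 16.26, 16.37 and 16.06 in HSC + TBI rats. Each TBI rat was above each control, as was the case, in the same direction, for 13.3% of all tested probes. Groups without overlap thus numbered 1 of 10 members for TBI against control (1 higher, 0 lower), beside 28.9% of all tested probes in either direction and 15.6% with TBI lower. They numbered 0 of 10 for HSC + TBI against control, beside 31.7% in either direction and 13.7% with HSC + TBI lower, and 0 of 10 for HSC + TBI against TBI, beside 21.4% in either direction and 12.7% with HSC + TBI higher. The log2 difference for TBI was 0.31 (SE 0.14, 95% interval 0.00 to 0.62, unadjusted p = 0.0473 and adjusted p = 0.191 by limma). HSC + TBI differed from control by 0.18 (adjusted p = 0.523), and HSC + TBI 3 fell among the controls. With scaling to the 75th percentile in place of quantiles, Apob read 16.46, 16.41 and 16.39 in HSC + TBI rats. These were above every control (16.10, 15.86 and 15.87) and every TBI rat (16.25, 16.26 and 16.34). Apoa5 also separated both irradiated groups from the controls with that scaling. The counts of members without overlap therefore hold only for the quantile-normalized values.

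The other 4 Apob probes did not all follow the main probe. Of these, A_44_P402346, A_44_P553791 and A_44_P402339, gave log2 differences of -0.06, -0.03 and -0.08 for TBI against control. On each of these the lowest signal of all 9 rats was in TBI 3, the rat in which the main probe was highest. Probe A_44_P402346, for example, read 13.53, 13.27 and 13.07 in controls, 13.60, 13.47 and 12.63 in TBI rats, and 13.45, 13.52 and 13.41 in HSC + TBI rats. Probe A_44_P219789 behaved differently again, with 12.53, 11.85 and 11.61 in controls, 12.75, 12.71 and 12.43 in TBI rats, and 12.56, 12.68 and 12.57 in HSC + TBI rats. Its log2 difference was 0.63 for TBI (adjusted p = 0.12 by limma) and 0.61 for HSC + TBI (adjusted p = 0.18), and every HSC + TBI rat was above every control, as for 18.0% of all tested probes.

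The gap of the main probe over the mean of the remaining Apob probes was 4.11 log2 units in TBI 3 and 2.93 to 3.45 in the other 8 rats. Taken as a deviation from the gene's own median gap, the value in TBI 3 was 0.97. It was larger than that of 98.6% of the 2191 accessions with several probes on the same array. The positions of the probes along the transcript were not used here. Whether RNA quality, transcript form or probe position had a part in this rat was not tested. In HSC + TBI rats the first 3 probes stood within 0.17 to 0.24 log2 units of their control means, with no adjusted p under 0.686 by limma.

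**Figure D2:**
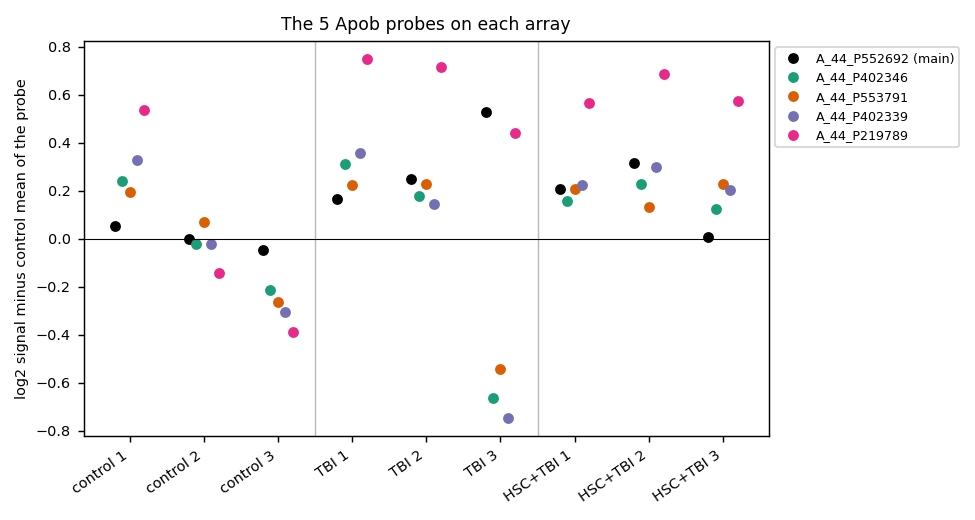
Log2 signal of each of the 5 Apob probes minus that probe's control mean (vertical axis) on the 9 arrays, labelled by group and rat. In TBI 3 the main probe is at its highest while 3 other probes are at their lowest, and A_44_P219789 is above its control mean in all irradiated rats.

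After quantile normalization the C apolipoproteins and Apoe had the smallest spread of the members. That normalization sets each value by its rank on the array, and for probes this bright few values are possible: the main probe of Apoc3 took the same value on 4 of the 9 arrays. Apoc3, whose product slows triglyceride clearance, gave main-probe log2 signals of 18.23, 18.13 and 18.16 in controls, 18.37, 18.10 and 18.23 in TBI rats, and 18.04, 18.23 and 18.23 in HSC + TBI rats. Its log2 differences were 0.06 and -0.01 for TBI and HSC + TBI against control and -0.07 between the irradiated groups, and the second Apoc3 probe gave 0.02, -0.04 and -0.06. Apoc1, an activator of lecithin-cholesterol acyltransferase and an inhibitor of lipoprotein uptake, read 17.70, 17.83 and 17.68 in controls, 17.79, 17.77 and 17.73 in TBI rats, and 17.77, 17.77 and 17.92 in HSC + TBI rats. The Apoc1 log2 differences were 0.03, 0.09 and 0.06 in that order of comparisons, and its groups overlapped.

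Apoe encodes the ligand by which remnant particles are taken up by hepatocytes, and both macrophages and hepatocytes make it. It read 18.00, 18.03 and 18.10 in controls, 18.03, 17.98 and 17.88 in TBI rats, and 18.00, 18.03 and 18.06 in HSC + TBI rats. Its within-group SD was 0.06 (log2), but with scaling to the 75th percentile in place of quantiles the SDs of Apoc1, Apoc3 and Apoe were all 0.26. With that scaling the smallest spread was that of Apob, 0.09, and the HSC + TBI against TBI difference of Apoe was 0.36 (95% interval -0.10 to 0.82, adjusted p = 0.434 by limma). The 95% interval of its TBI difference ran from -0.31 to 0.14. Over the 7 Kupffer cell and macrophage markers the median log2 difference was 0.46 for TBI against control and -1.10 for HSC + TBI against TBI. None of the 7 was called in either, but in HSC + TBI against TBI 6 had an unadjusted p under 0.05 by limma, and 5 had all HSC + TBI rats below all TBI rats, beside 8.74% of all tested probes. Their log2 differences in HSC + TBI against TBI ran from -1.28 for Csf1r to -0.14 for Cd163. Their summed signal was 46902 to 67493 in controls, 46584 to 87846 in TBI rats and 32733 to 35672 in HSC + TBI rats, and all 7 were above background in every rat. That sum is mostly Clec4f, the brightest, with a mean log2 signal of 15.25 beside 12.80 for Cd68, the next. Apoe over the same HSC + TBI against TBI comparison differed by 0.07 (95% interval -0.16 to 0.30).

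Apom, carried on HDL as the chaperone of sphingosine 1-phosphate, and Apoh, a phospholipid-binding plasma glycoprotein also called beta-2-glycoprotein I, completed the set. Apom read 15.79, 15.32 and 15.74 in controls, 15.76, 15.67 and 15.49 in TBI rats, and 15.78, 15.69 and 15.67 in HSC + TBI rats. Control 2 was the lowest of the 9 for Apom, and the log2 differences from control were 0.03 for TBI and 0.10 for HSC + TBI. Apoh read 16.85, 16.75 and 16.91 in controls, 16.70, 16.64 and 17.02 in TBI rats, and 17.00, 16.92 and 16.89 in HSC + TBI rats. In Apoh the TBI group held both the lowest and the highest quantile-normalized signal, and the log2 differences from control were -0.05 for TBI and 0.10 for HSC + TBI. Against TBI, HSC + TBI rats differed by 0.15 for Apoh (adjusted p = 0.608 by limma) and by 0.07 for Apom.

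**Figure D3:**
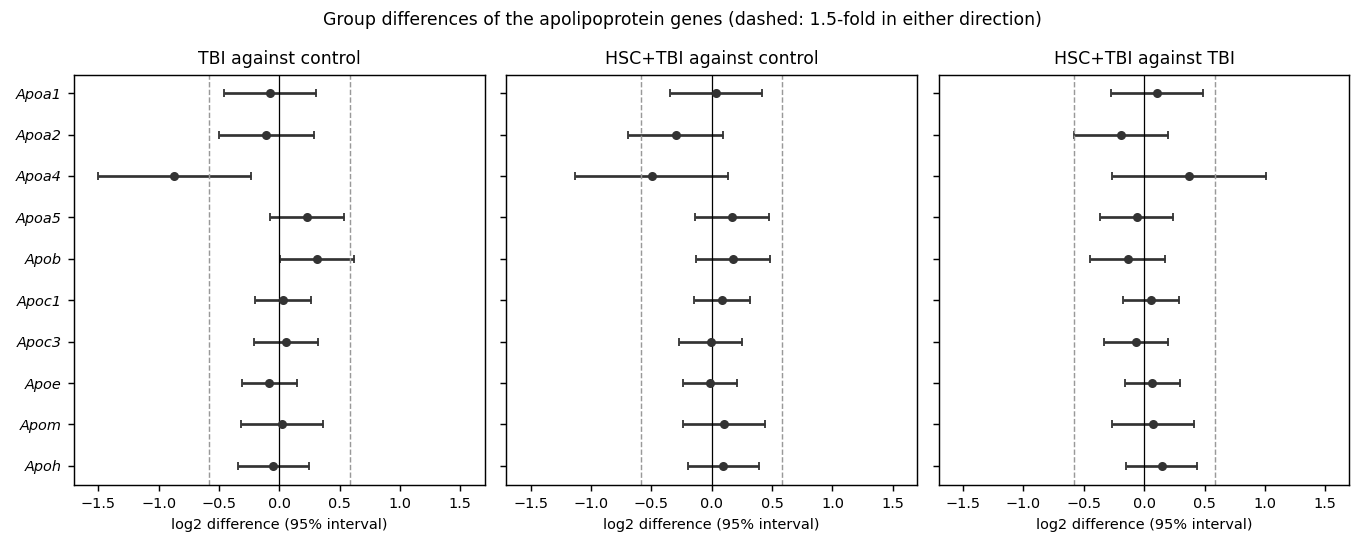
Log2 difference between groups (horizontal axis, point) with its 95% interval (bar, limma) for the main probe of each apolipoprotein gene in the 3 comparisons, 1 per panel. The dashed lines mark 1.5-fold in either direction, and in TBI against control only the intervals of Apoa4 and Apob cross or pass them.

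The intervals set limits on how far the members could have moved. For TBI against control the 95% interval lay within 1.5-fold in either direction for 8 of 10 members, the exceptions being Apoa4 and Apob, beside 38.9% of all tested probes. For HSC + TBI against control it did so for 8 members, the exceptions being Apoa2 and Apoa4, beside 42.3%. For HSC + TBI against TBI it did so for 9 members, Apoa4 being the exception, beside 44.5%. The members' median log2 differences were -0.01, 0.06 and 0.06, and those of all tested probes were -0.01, 0.05 and 0.06. The median within-group SD was 0.14 (log2) over the members, 0.23 over all tested probes and 0.13 over the 216 tested probes at least as bright as the dimmest main probe. With scaling to the 75th percentile these medians were 0.26, 0.23 and 0.21, and the intervals lay within 1.5-fold for 4, 2 and 3 of the 10 members in the same order of comparisons, beside 38.2%, 39.5% and 43.97% of all tested probes. The narrow limits therefore hold only for the quantile-normalized values. No member was called with that scaling either, and the HSC + TBI against control difference that moved most was that of Apob, to 0.48 (95% interval 0.22 to 0.74, adjusted p = 0.056 by limma). Among the 3 groups, 0 of 10 members passed limma's F-test at an adjusted p under 0.05, beside 6.89% of all tested probes, and Apoa4 alone had an unadjusted p under 0.05 (0.0382), beside 26.1%. The one-way analysis of variance named in the methods called 0 members at an unadjusted p under 0.01.

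Across the 9 rats the quantile-normalized signals of the members did not vary as a group. Pearson's r between Apoa4 and Apoa5 was -0.71 and between Apoa4 and Apob -0.73, whereas Apoa5 and Apob gave 0.60. The lowest of the pairwise coefficients was -0.85, between Apob and Apoe, and the highest was 0.62, between Apoa1 and Apoh. Within the chromosome 8 cluster, Apoa1 and Apoc3 gave -0.78. All coefficients rest on 9 arrays that share the group differences and the quantile normalization, and they are given as descriptions. They were not recomputed with scaling to the 75th percentile. With that scaling Apoc1, Apoc3 and Apoe were each lowest in TBI 3 (17.24, 17.72 and 17.38). Each was highest in HSC + TBI 3 (18.19, 18.55 and 18.34). Apoa4 had the smallest F-test p of the members, and the named genes with the pattern most like it by Pearson's r over the 9 arrays were Dipk1b (0.97), Thoc6 (0.96), Adamts7 (0.96), Nudt16l1 (0.96) and Grtp1 (0.95). None of these 5 was called in a comparison.

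Other genes of lipoprotein metabolism were followed as a list of 54 genes, of which 46 could be named on the array and 44 were tested. For TBI against control 2 rose and 2 fell, beside 3.54% and 3.71% of all tested probes. For HSC + TBI against control 1 rose and 0 fell, beside 1.19% and 2.05%, and for HSC + TBI against TBI 0 were called. The median log2 differences of the 44 genes were -0.01, -0.04 and 0.03, beside -0.01, 0.05 and 0.06 for all tested probes. Among 6 further apolipoproteins on the array, only Apod was called. The chromosome 1 cluster members Apoc2 and Apoc4 gave log2 differences of -0.05 and 0.12 for TBI against control. The main probes of Clu, Saa4 and Apon lay between -0.09 and 0.04, and a second Saa4 probe gave -0.30.

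Apod encodes a lipid carrier of the lipocalin family, to which apolipoprotein M also belongs. Its log2 signal was 3.22, 2.96 and 2.96 in controls, 4.35, 4.25 and 4.48 in TBI rats, and 3.75, 4.36 and 4.05 in HSC + TBI rats. No control array measured it above background, against 3 TBI arrays and 2 HSC + TBI arrays. Apod thus passed the filter for testing only through the TBI group, where its signal was highest, so its p-values are not independent of that filter. The fitted log2 difference from control was 1.31 in TBI rats (adjusted p = 0.00384 by limma) and 1.01 in HSC + TBI rats (adjusted p = 0.0173 by limma). As bounds, Apod was at least 1.42-fold higher in TBI rats and at least 1.15-fold higher in HSC + TBI rats. The HSC + TBI bound averages in an array that was not above background. Both bounds are under the 1.5-fold minimum, so the calls rest on control signals that were all below background. Neither call was made with background correction by normexp. The HSC + TBI call was also lost with the methods' t-test adjusted and without control 2, control 3, HSC + TBI 2 or HSC + TBI 3.

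In the list of 6 receptors and uptake genes, 5 were tested and 0 were called in any comparison. Lrp1, a large endocytic receptor for apolipoprotein E, passed the adjusted p in TBI (0.0197 by limma) but not the 1.5-fold minimum, with a log2 difference of 0.57, and its second probe gave 0.26.

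Of 12 transcription factors tested, 1 rose and 2 fell for TBI against control, and 0 were called in the other comparisons. Their median log2 difference was -0.25 for TBI against control, beside -0.01 for all tested probes, and -0.12 for HSC + TBI against control, beside 0.05. In 6 of the 12 all TBI rats were below all controls and in 2 all were above, beside 15.6% and 13.3% of all tested probes. Of these, Ppara and Foxa2 were lower in TBI by -0.61 and -0.68 but not called (adjusted p = 0.062 and 0.124 by limma). HSC + TBI against control gave -0.03 for Ppara and -0.94 for Foxa2 (adjusted p = 0.949 and 0.0783 by limma). Nr1h4, the bile acid receptor FXR, read 9.16, 9.0 and 9.19 in controls, 9.85, 9.60 and 9.87 in TBI rats, and 9.67, 9.74 and 9.48 in HSC + TBI rats. It rose by 0.66 after TBI (adjusted p = 0.0188 by limma), and in HSC + TBI rats it differed from control by 0.52 (adjusted p = 0.0692). The TBI call of Nr1h4 was lost without control 2 or control 3 and with normexp, where the log2 difference was 0.52. It was also lost with only the compared groups and with the methods' t-test adjusted.

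Nr0b2, the corepressor SHP that FXR induces, read 14.84, 14.12 and 15.05 in controls, 12.92, 12.41 and 13.93 in TBI rats, and 14.03, 14.60 and 14.51 in HSC + TBI rats. It fell by 1.58 on the log2 scale after TBI (SE 0.39, adjusted p = 0.044 by limma), and all TBI rats were below all rats of the other groups. HSC + TBI differed from TBI by 1.29 (unadjusted p = 0.00988, adjusted p = 0.169) and was called without TBI 3, when it was 1.71. The TBI call of Nr0b2 was kept in only 2 of the 9 omissions of 1 rat, those of control 2 and TBI 3, and the log2 difference ran from -2.0 to -1.24 over all 9. The call was also lost without the filter on dim probes, with only the compared groups and with the methods' t-test adjusted. Nr1d1, the clock repressor Rev-erb alpha, read 9.60, 9.36 and 9.85 in controls, 8.81, 8.96 and 8.66 in TBI rats, and 9.10, 9.01 and 9.25 in HSC + TBI rats. It fell by 0.80 after TBI (adjusted p = 0.0183 by limma), and it differed by -0.48 in HSC + TBI rats (adjusted p = 0.13). The TBI call of Nr1d1 was lost without control 1 or control 3, with only the compared groups and with the methods' t-test adjusted. Hnf4a, a hepatocyte nuclear factor with binding sites in many apolipoprotein promoters, gave -0.01 for TBI against control on its main probe. A second Hnf4a probe, A_43_P12146, gave -0.50 (adjusted p = 0.0951 by limma), with all TBI rats below all controls, and neither was called.

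**Figure D4:**
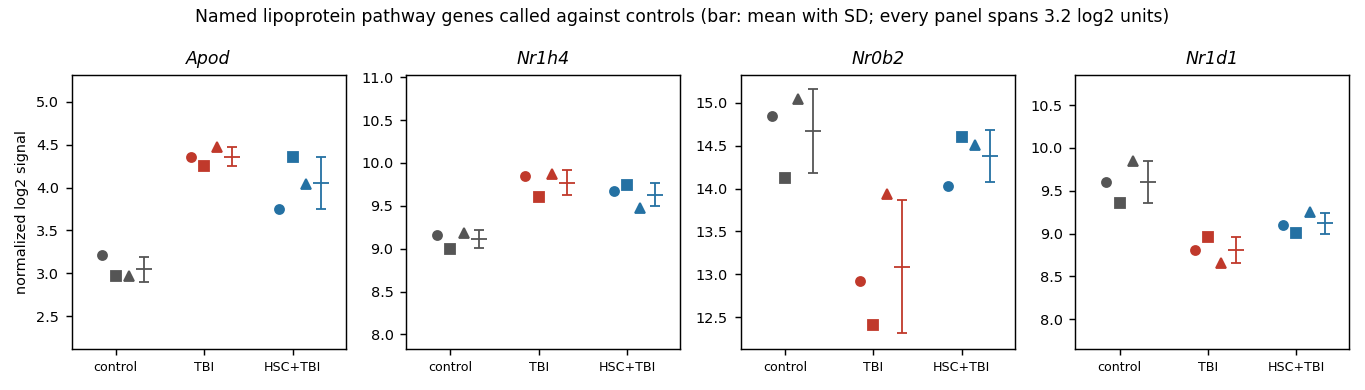
Normalized log2 signal (vertical axis) of the 4 lipoprotein pathway genes called in a comparison with controls, with 1 point per rat (circle, square and triangle for rats 1, 2 and 3) and the group mean with its SD. Every panel spans 3.2 log2 units; Apod and Nr1h4 are higher in each irradiated rat than in each control, and Nr1d1 is lower.

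Of the genes that assemble and secrete lipoproteins, 0 of 8 tested were called in any comparison. Mttp, which loads lipid onto apolipoprotein B, gave a log2 difference of 0.40 for TBI against control (adjusted p = 0.14 by limma), and Soat2, which makes cholesteryl esters, gave -0.57 (adjusted p = 0.048) and so missed the 1.5-fold minimum. Both genes of apolipoprotein B mRNA editing, Apobec1 and A1cf, were tested and not called, at 0.60 and -0.62 for TBI. Among 7 HDL and remodelling genes tested, Pltp, which transfers phospholipid, gave 1.0 for TBI (adjusted p = 0.0744 by limma) and -1.03 for HSC + TBI against TBI (adjusted p = 0.152). Abcg1, a cholesterol exporter that macrophages express strongly, gave 0.56 and -1.29 in the same comparisons (adjusted p = 0.348 and 0.135). The Kupffer cell and macrophage markers given above had medians of 0.46 and -1.10 in these comparisons, and their part in the values of Pltp and Abcg1 was not tested. None of the 4 tested genes of lipoprotein lipase and its regulators was called.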

How the data were processed

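Per the file headers, the authors read spot intensities with Agilent Feature Extraction 10.7.3.1 (10.7 in the submitters' processing notes). They then quantile-normalized the signals and deposited the resulting log2 values. Here the background-subtracted processed signal of each spot was floored at 1, put on the log2 scale, quantile-normalized over the 9 arrays and averaged per probe, without control spots and spots flagged as outliers. Tests covered the 25369 probes that every array of some group flagged as well above background. Groups, taken from the sample labels, were compared with lmFit and eBayes of limma 3.58.1 in R 4.3.3, in 1 fit of the 3 group means, with Benjamini-Hochberg adjustment over all tested probes. The scripts were tested on simulated data. The median absolute difference from the authors' log2 values was 0.03.

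Unversioned RefSeq accessions, looked up in the RefSeq genes of assembly GRCr8, named 16968 probes and 9604 tested genes. The arrays were designed on an earlier build, so no gene coordinates were carried over, and promoter coordinates belong to the RefSeq sequences. All members and every called gene of the pathway lists are named, with others named for their role, and some of these were picked after their values were seen. The members and lists were chosen with earlier results of these data known. Results for a few genes of the lists are not reported here, and the lists are counted without them. The marker lists were hepatocyte, Kupffer cell and macrophage, stellate cell, endothelial cell, intestinal epithelium, lymphocyte and red blood cell precursor.

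Where no array of a group measured a gene above background, its fold is a lower bound, with each such array set at its lowest signal flagged above background or at the gene's own where higher. The alternatives tried were scaling to the 75th percentile, normexp correction (offset 50, on median spot and background signals), the authors' values, 2 other filters on dim probes, outlier spots kept, only the compared groups, the t-test and one-way analysis of variance of the methods, no minimum fold change, the replicate number or the slide as a block, the mean of a gene's probes, and each rat left out. The spread and interval counts with the 75th percentile were added after the data were seen. Values of a gene are those of its main probe unless another is named. Intervals are 95% and cover the spread between rats, with 8.58 degrees of freedom.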

Additional observations from a re-analysis of the deposited data

How the results depend on the processing

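Across 22 alternatives, 9 of them leaving out 1 rat, 3 of the 660 recomputed member differences were called, all of them Apoa4 in TBI against control. Apoa4 was called with the replicate block (adjusted p = 0.0247), with the slide as a random block (0.00213) and without TBI 1 (0.0416), while its adjusted p by limma and the methods' t-test ran from 0.00213 to 0.285 over all alternatives. Omission of 1 rat gave 0 to 1 members called for TBI against control. By the F-test, 1 member passed with the replicate block and 2 with the slide block. A difference changed sign in 27 of the 660 values, none of them beyond 0.27 in size and each with an interval that included 0 before and after.

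For the pathway genes, the 4 calls in TBI against control became 2 with normexp, 1 with only the compared groups, 1 with the methods' t-test adjusted, 11 with the slide block and 2 to 8 on leaving out 1 rat. The 1 call in HSC + TBI against control became 0 with normexp, 0 when every array had to be above background, 3 and 0 with the methods' t-test unadjusted and adjusted, 2 with the slide block, and 0 to 2 on leaving out 1 rat. The 0 calls in HSC + TBI against TBI became 2 with the unadjusted t-test, 6 with the slide block and 0 to 3 on leaving out 1 rat. The correlation estimated within slides was -0.33. No slide held arrays of more than 1 group, so the slide block could not adjust any comparison for slide. A negative correlation there lowers the SE of the group differences. The cause of the other changes was not tested.

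The labels do not say what rats with the same replicate number share. Their deviations from the group means correlated at -0.14 to 0.19, and 2 of 9 such correlations were over 0.1. Rats with unlike numbers gave -0.12 to 0.14, with 2 of 18 over 0.1. Between control and TBI rats, like numbers gave 0.19, 0.12 and 0.10, and unlike numbers gave -0.12 to 0.02. Pairs with an HSC + TBI rat of like number gave -0.14 to 0.01. With the replicate block, pathway calls numbered 5, 1 and 0 in the 3 comparisons, and calls over all probes numbered 1575, 780 and 97, against 1839, 820 and 202 without it. Over all alternatives these counts ran from 145 to 4528, 100 to 2573 and 2 to 2256. The share of calls that were higher in HSC + TBI against TBI was 29.2%, and 13.7% with the 75th percentile shift and 55.6% with normexp. All member probes were above background on all arrays, so signal over background limits Apod and not the members.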

Other observations

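Among markers of other liver and blood cells, the B lymphocyte receptor gene Cd79b fell in both irradiated groups. Its log2 signal was 6.08, 4.80 and 4.60 in controls, 1.99, 2.14 and 2.59 in TBI rats, and 1.91, 1.78 and 2.02 in HSC + TBI rats. No irradiated rat measured it above background, so it was at least 4.97-fold lower in TBI and at least 2.90-fold lower in HSC + TBI. The fitted log2 differences, without those bounds, were -2.91 and -3.26 (adjusted p = 0.00317 and 0.0026 by limma). Cd79b passed the filter for testing only through the control group, where its signal was highest, so these p-values are not independent of that filter. Of the other lymphocyte markers, Cd3e was not tested, being above background throughout no group. The leukocyte gene Ptprc was lower in HSC + TBI rats on all 3 of its probes. Its main probe gave -1.29 against control and -1.08 against TBI and was not called (adjusted p = 0.0805 and 0.178 by limma). Probe A_44_P414258, also not called, gave -1.34 and -1.30 (adjusted p = 0.0772 and 0.133 by limma). Probe A_44_P236144 was called, at -1.28 and -1.75 (adjusted p = 0.0157 and 0.0149 by limma). Of 5 stellate cell markers, Lrat, which esterifies retinol, fell by 0.63 on the log2 scale after TBI (adjusted p = 0.0237 by limma) and the other 4 were not called. Of the 3 endothelial markers 0 were called, and Alas2, the 1 red blood cell precursor marker on the array, gave -1.15 for TBI and -1.96 for HSC + TBI against control (adjusted p = 0.225 and 0.092 by limma).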
